A study of Mus musculus with 88 samples.

Results

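Genes by which striatal spiny projection neurons are recognised were followed library by library in RNA-seq of mouse anterior cortex. They were chosen by symbol as Drd1, Tac1, Drd2, Adora2a, Penk, Gpr6, Ppp1r1b, Rgs9 and Pde10a, all 9 were found, and they are 9 of the 14451 genes in the table. The 88 mice, 45 female and 43 male and on average 6.5 months old, fell into 8 genotypes. All carried human APOE by targeted replacement of mouse Apoe on both copies, either APOE3 (E3) or APOE4 (E4). APP mice also carried the APP/PS1dE9 transgenes, mutant APP and presenilin 1 that give amyloid deposits and are driven by the prion promoter, which is active mainly in the central nervous system. Trem2ko mice carried a germline knockout of Trem2, a receptor of microglia. Mice without APP are called plaque-free. The groups were APP/E4/Trem2ko (n = 16), APP/E4 (n = 14), APP/E3/Trem2ko (n = 14), APP/E3 (n = 14), E4/Trem2ko (n = 8), E4 (n = 6, 4 of them female), E3/Trem2ko (n = 8) and E3 (n = 8).

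The striatum lies directly beneath the cortex and is made up largely of GABAergic spiny projection neurons. Those of the direct pathway carry the dopamine receptor D1 and release substance P and dynorphin, and those of the indirect pathway carry the dopamine receptor D2 and the adenosine receptor A2a and release enkephalin. Both types pass dopamine signals through adenylyl cyclase and cAMP to the phosphoprotein DARPP-32, and cortical neurons use many of the same genes at lower levels.

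Libraries held 41.3 to 95.5 M reads (median 49.8 M), so that 1 read was worth 0.0105 to 0.0242 CPM, the unit used here, which scales a gene's reads to a common library total. Trem2 ran from 1.12 to 4.65 CPM in the 46 Trem2ko mice and from 7.18 to 19.8 CPM in the 42 mice with wild-type Trem2, with no overlap. Reads of stratified epithelium (Krt13, Krt4 and Krt6a together at 1 CPM or more) were found in 31 libraries, all of them APOE4. The choroid plexus gene Ttr reached 100 CPM in 9 libraries and Alb, a liver and plasma protein, 50 CPM in 4. Slc17a7, the vesicular glutamate transporter that defines cortical excitatory neurons, was present in every library, at 906 to 2869 CPM.

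Upstream sequence is shown for 3 of the 9 genes, those with more than 1 match each, as a description of their start regions. The RefSeq promoter table (GRCm38.p6) matched 6 of the 9 genes, all but Adora2a, Penk and Ppp1r1b, with 8 start sites in all. The 250 bases before each start were searched on both strands for the cAMP response element TGACGTCA, for its core CGTCA, which lies within it, and for the Sp1-type box GGGCGG. Matches on either strand are in capitals, with their first base counted back from the RefSeq start, which can differ from the gene bounds given further on.
Gpr6 (chr10:41072291-41072540, minus strand): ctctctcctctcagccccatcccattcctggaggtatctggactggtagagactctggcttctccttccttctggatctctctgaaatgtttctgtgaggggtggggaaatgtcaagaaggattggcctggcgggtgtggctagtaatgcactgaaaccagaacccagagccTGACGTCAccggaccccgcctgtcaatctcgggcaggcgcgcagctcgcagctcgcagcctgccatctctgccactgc
Tac1 (chr6:7554811-7555060, plus strand): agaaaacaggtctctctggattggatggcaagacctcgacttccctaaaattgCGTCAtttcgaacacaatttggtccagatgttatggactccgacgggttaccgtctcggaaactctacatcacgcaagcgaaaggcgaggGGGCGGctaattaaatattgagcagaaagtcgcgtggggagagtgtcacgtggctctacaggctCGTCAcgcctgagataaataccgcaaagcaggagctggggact
Drd2 (chr9:49340153-49340402, plus strand): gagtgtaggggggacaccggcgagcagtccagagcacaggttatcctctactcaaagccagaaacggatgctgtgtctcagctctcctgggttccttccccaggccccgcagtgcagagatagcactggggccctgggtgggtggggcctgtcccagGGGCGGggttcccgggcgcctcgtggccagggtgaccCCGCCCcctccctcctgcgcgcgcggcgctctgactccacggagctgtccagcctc
Gpr6 held the whole element 78 bases before its start, a match found in 1.55% of the 32851 promoter windows of the table. Tac1 held its core at 197 and 43 bases and a GGGCGG box at 107 bases, and Drd2 held that box at 93 and 56 bases. The core was present in 17.8% of all windows and the box in 32.7%. Among the other matched genes, Rgs9, Pde10a and Drd1 each held 1 box in 1 window and no core. These matches are letters in a window and not sites of binding, and their part in the levels of the genes was not tested.

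Drd2, the inhibitory dopamine receptor of the indirect pathway (chromosome 9, 49340627 to 49408177 on GRCm38), spread most. It ran from 0.439 CPM in a single E3/Trem2ko mouse, D3834 (24 reads, exact 95% Poisson interval 0.281 to 0.653 CPM), to 72.4 CPM in an APP/E3 mouse, D3562 (3717 reads, 70.1 to 74.8 CPM), a 165-fold spread that counting error does not cover. Intervals of this kind cover counting error only. In APP/E4/Trem2ko cortex the lowest, median and highest values were 0.630, 1.47 and 65.3 CPM, against 0.769, 2.19 and 63.9 CPM in APP/E4 cortex. In both genotypes the median mouse lay near the low end of the range, and a few mice lay far above. APP/E3/Trem2ko mice ran 0.565, 1.0 and 71.1 CPM, against 0.608, 1.21 and 72.4 CPM in APP/E3 mice. Without APP, E4/Trem2ko mice ran 0.443, 0.740 and 1.92 CPM, against 0.915, 19.6 and 64.1 CPM in E4 mice, and E3/Trem2ko mice ran 0.439, 0.991 and 3.08 CPM, against 0.541, 1.2 and 53.0 CPM in E3 mice. The highest Drd2 value was thus 53.0 CPM or more in 6 genotypes, against 1.92 CPM in E4/Trem2ko and 3.08 CPM in E3/Trem2ko mice. Above 3.08 CPM lay 27 mice. That limit was set by the 2 plaque-free Trem2ko genotypes, so none of their mice could pass it. Of the 27, 6 were APP/E4/Trem2ko, 5 APP/E4, 4 APP/E3/Trem2ko, 5 APP/E3, 4 E4 and 3 E3. In bulk cortex, fewer cells of a type and less RNA per cell cannot be told apart.

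Adora2a, the adenosine A2a receptor of the same neurons (chromosome 10, 75316877 to 75334784), followed Drd2 closely, from 1.5 CPM in the APP/E4/Trem2ko mouse E4132 to 183 CPM in the APP/E3/Trem2ko mouse D3938. Its median was 3.97 CPM in APP/E4/Trem2ko mice and 7.01 CPM in APP/E4 mice, with highest values of 169 and 176 CPM. In plaque-free APOE4 cortex it ran 2.30, 3.09 and 4.14 CPM (lowest, median, highest) in E4/Trem2ko mice, against 2.47, 44.9 and 176 CPM in E4 mice. The E4 group reached 2.47 CPM at its low end and so overlapped the E4/Trem2ko group. In plaque-free APOE3 cortex the same 3 values were 2.06, 2.63 and 6.06 CPM in E3/Trem2ko mice, against 2.02, 4.20 and 160 CPM in E3 mice.

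Penk, the precursor of enkephalin (chromosome 4, 4133531 to 4138819), is also used by cortical interneurons. It ran from 11.2 CPM in the E4/Trem2ko mouse E3446 to 485 CPM in the APP/E4/Trem2ko mouse E3451. Medians were 41.5 CPM in APP/E4/Trem2ko, 39.3 CPM in APP/E4, 29.3 CPM in APP/E3/Trem2ko and 32.0 CPM in APP/E3 mice. Plaque-free medians were 21.8 CPM in E4/Trem2ko against 126 CPM in E4 mice, and 21.7 CPM in E3/Trem2ko against 64.1 CPM in E3 mice. The highest E4/Trem2ko mouse had 38.7 CPM, which lay above the lowest E4 mouse (18.5 CPM). Gpr6, an orphan receptor that signals through cAMP in indirect pathway neurons (chromosome 10, 41069977 to 41072285), ran from 0.389 CPM (17 reads) to 22.3 CPM. Its medians ran from 1.06 CPM in E4/Trem2ko to 6.77 CPM in E4 mice.

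Drd1, the stimulatory dopamine receptor of the direct pathway (chromosome 13, 54051183 to 54055705), spread 33.7-fold, less than Drd2. The lowest mouse was an E4 animal, E3679, at 4.47 CPM, and the highest was D3938 (APP/E3/Trem2ko) at 151 CPM. Lowest, median and highest values were 6.12, 12.2 and 117 CPM in APP/E4/Trem2ko mice, against 6.66, 14 and 107 CPM in APP/E4 mice. They were 6.32, 7.90 and 11.4 CPM in E4/Trem2ko mice, against 4.47, 38.3 and 101 CPM in E4 mice. They were 5.16, 7.01 and 22.5 CPM in E3/Trem2ko mice, against 5.98, 13 and 103 CPM in E3 mice. The E4 group thus held both the lowest Drd1 value of the series and the highest genotype median. Tac1, the precursor of substance P (chromosome 6, 7554879 to 7565834), ran from 3.62 CPM in the same E4 mouse, E3679, to 143 CPM in D3938. Its genotype medians ran from 5.87 CPM in E4/Trem2ko to 24.6 CPM in E4 mice.

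The remaining 3 genes act in both neuron types. Ppp1r1b, which encodes DARPP-32 (chromosome 11, 98348404 to 98357796), ran from 45.3 CPM in E4132 (APP/E4/Trem2ko) to 1091 CPM in D3720 (APP/E3). Rgs9, which shuts off G protein signalling (chromosome 11, 109225355 to 109298129), ran from 11.6 to 287 CPM, and Pde10a, a phosphodiesterase that degrades cAMP and cGMP (chromosome 17, 8525372 to 8986648), from 38.1 to 622 CPM. In E4/Trem2ko mice Ppp1r1b ran 72.0, 88.3 and 101 CPM, against 100, 331 and 912 CPM in E4 mice, so that the groups overlapped only in the highest E4/Trem2ko and the lowest E4 mouse. Rgs9 ran 15.1, 17.5 and 19.7 CPM in E4/Trem2ko mice, against 14.8, 69.8 and 245 CPM in E4 mice. Pde10a ran 41.7, 52.0 and 65.1 CPM in E4/Trem2ko mice, against 39.0, 186 and 520 CPM in E4 mice. For both, the lowest E4 mouse lay below the whole E4/Trem2ko group.

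**Figure D1:**
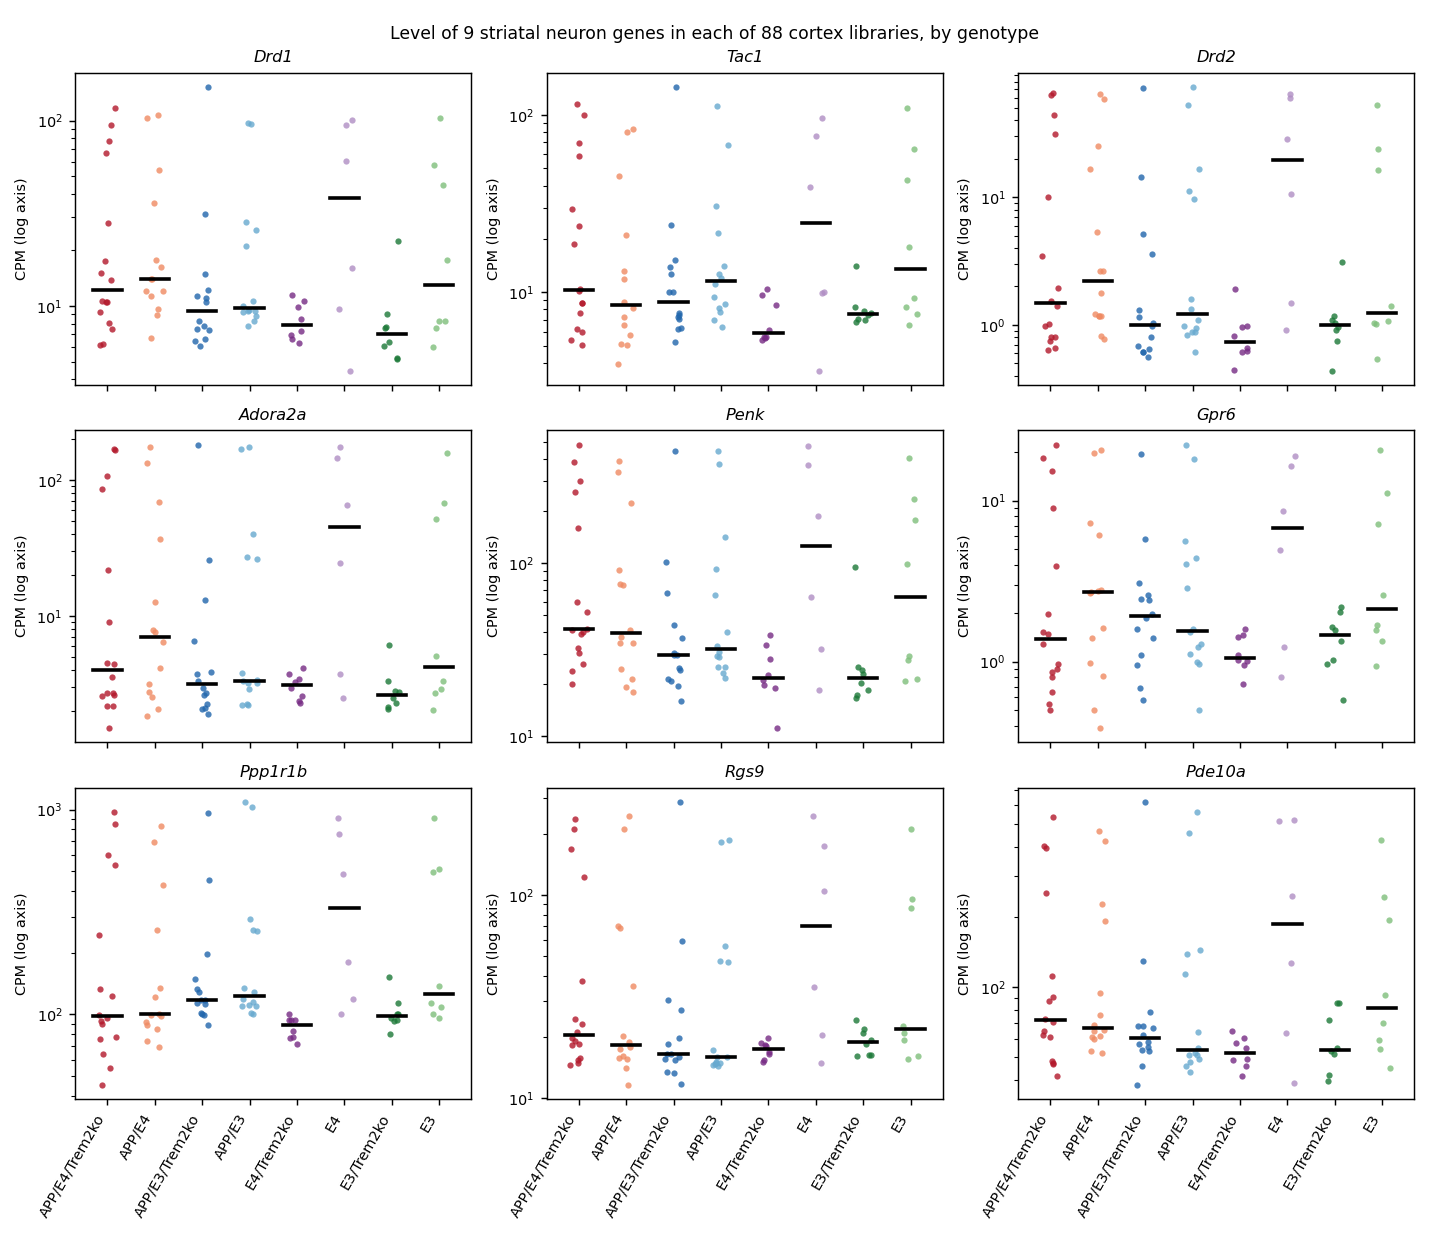
CPM (log axis) of each of the 9 genes in each mouse (points) by genotype, with the genotype median as a bar. High values occur in 6 genotypes, while the highest Drd2 value is 1.92 CPM in E4/Trem2ko and 3.08 CPM in E3/Trem2ko mice, and the E4 median is the highest of the 8 for every gene.

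Scaled by annotated exon length, the order of the median levels was Ppp1r1b (38.0 CPM per kb), Penk (20.1), Pde10a (4.97), Rgs9 (2.91), Drd1 (2.89), Tac1 (2.66), Adora2a (1.09), Gpr6 (0.890) and Drd2 (0.459). In the highest library of each gene, Adora2a reached 59.6 CPM per kb and passed Pde10a (48.4 CPM per kb), Rgs9 (44.9 CPM per kb) and Drd1 (41.6 CPM per kb).

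Across genotypes the E4 median was the highest for all 9 genes. The lowest median belonged to E4/Trem2ko for Tac1, Drd2, Gpr6, Ppp1r1b and Pde10a, to E3/Trem2ko for Drd1, Adora2a and Penk, and to APP/E3 for Rgs9. For every gene, neighbours in this order overlapped in range, in 7 of 7 neighbouring pairs, and so did all 28 pairs of genotypes. Ranges without overlap were themselves rare, at 0.135% of 14086 genes for E4/Trem2ko and E4 mice and 0.483% for E3/Trem2ko and E3 mice.

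The mice with high values were largely the same for all 9 genes. Of the 12 highest mice for each gene, 11 were shared by all 9 lists, and only 14 mice appeared in any. The 11 were E3319, E3451 and E3467 (APP/E4/Trem2ko), E3177 and E3474 (APP/E4), D3938 (APP/E3/Trem2ko), D3720 and D3562 (APP/E3), E3459 and E3855 (E4) and D3502 (E3). They thus spanned both isoforms, both Trem2 states and mice with and without APP. X0152 (APP/E4/Trem2ko) was among the 12 for 7 genes, while D3722 and D3810 (E3) were so for Gpr6 and for Tac1 only. The low end was not shared: 50 mice were among the 12 lowest for some gene and none for all 9.

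Over the 88 mice every pair of the 9 genes was positively correlated on the log2(CPM + 0.5) scale. Pearson's r ran from 0.87 (Tac1 and Gpr6) to 0.99 (Drd2 and Adora2a), with a median of 0.94, and Spearman's rho from 0.54 to 0.87, with a median of 0.70. In each of the 36 pairs both had a 2-sided permutation p of 1e-05, adjusted 1e-05, the smallest that 100000 resamples can give. Without the 2 mice farthest from the median of the first gene of a pair, r ran from 0.85 to 0.99. The points share libraries and depth, and the genes were put together with earlier results known, so these values are a description. Within genotypes the median r of the 36 pairs was 0.95 in APP/E4/Trem2ko, 0.95 in APP/E4, 0.94 in APP/E3/Trem2ko, 0.97 in APP/E3, 0.97 in E4 and 0.97 in E3 mice. In the genotypes with no high library it was 0.17 in E4/Trem2ko mice (-0.76 to 0.83) and 0.52 in E3/Trem2ko mice (-0.63 to 0.95).

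**Figure D2:**
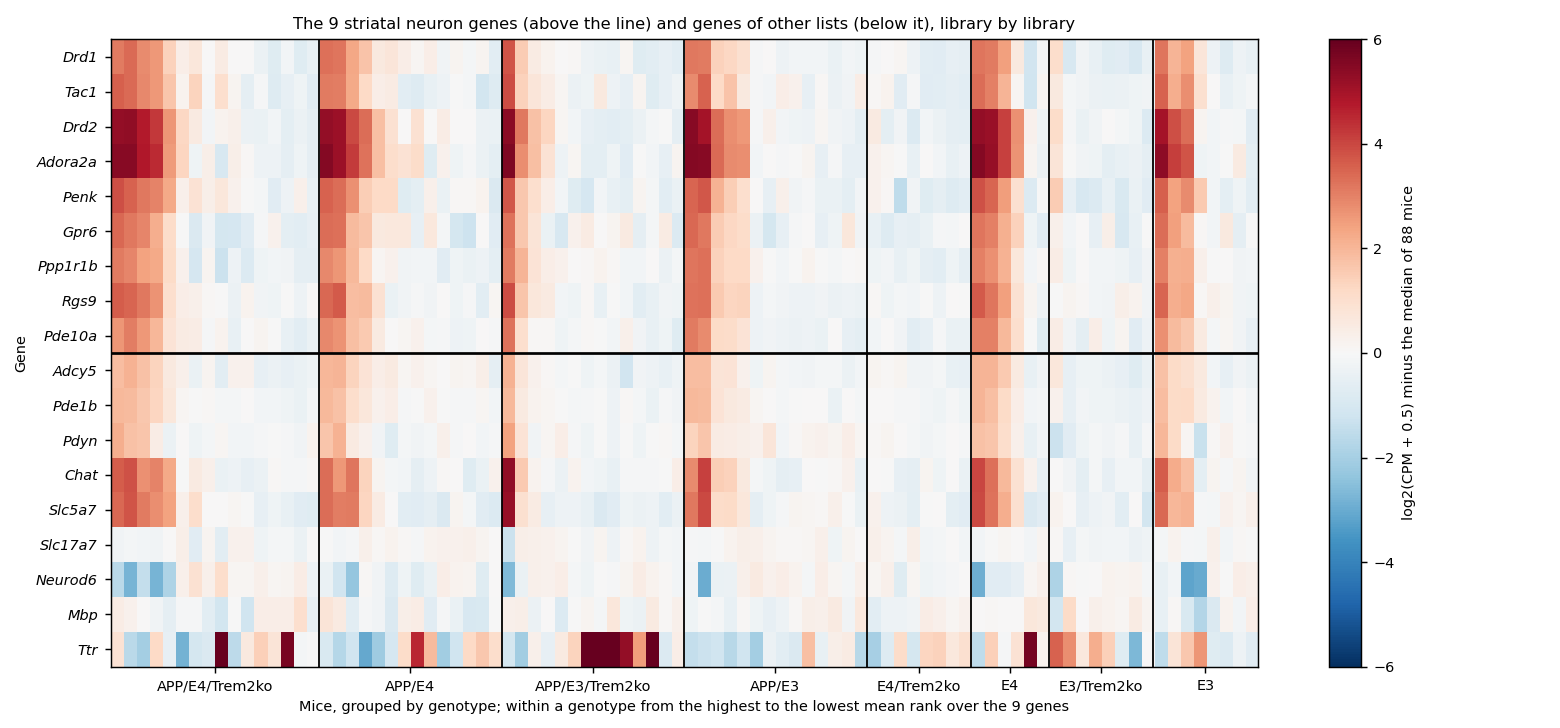
Log2(CPM + 0.5) minus the median of the 88 mice for the 9 genes (above the line) and for genes of other lists (below it), with 1 column per mouse, grouped by genotype and ordered within it by mean rank over the 9 genes. All 9 genes are high in the leftmost mice of 6 genotypes, where Adcy5, Pde1b, Chat and Slc5a7 are also high, while Mbp and Ttr follow another order. The colour scale ends at 6 in both directions, and Neurod6 was added after its values were seen.

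Direct and indirect pathway genes moved together but not in a fixed ratio. The log2 ratio of summed Drd1 and Tac1 to summed Drd2, Adora2a, Penk and Gpr6 had a median of -1.16 over all mice and ran from -2.04 to 0.04. By genotype its median was -1.19 in APP/E4/Trem2ko, -1.30 in APP/E4, -1.04 in APP/E3/Trem2ko and -1.10 in APP/E3 mice. It was -0.97 in E4/Trem2ko against -1.71 in E4 mice, and -0.88 in E3/Trem2ko against -1.27 in E3 mice. Among the highest libraries the ratio was -1.97 in D3562, -1.89 in E3855 and -1.29 in D3938. The genotypes hold different numbers of such libraries, and their ratios were not compared at equal level. The ratio of Drd1 to Drd2 in CPM had a median of 7.16 and was far lower in the highest libraries, for example 1.35 in D3562 (APP/E3), 1.5 in E3451 (APP/E4/Trem2ko) and 1.57 in E3855 (E4). Penk and Adora2a behaved likewise, with a median ratio of 7.73 over all mice and of 2.79 in E4 mice.

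A few libraries departed from the common pattern. Penk exceeded Adora2a 36.8-fold in D3811 (E3), 34.7-fold in E4132 (APP/E4/Trem2ko), 22.6-fold in E3200 (APP/E4), 21.9-fold in E4127 (APP/E4/Trem2ko) and 15.8-fold in D3833 (E3/Trem2ko). In D3811 Penk stood at 99.0 CPM and Drd1 at 17.6 CPM while Drd2 was at 1.40 CPM and Adora2a at 2.69 CPM. D3833 was the highest E3/Trem2ko mouse for Drd1 (22.5 CPM), Penk (95.6 CPM) and Drd2 (3.08 CPM), but its Rgs9 (18.4 CPM) was within its group. Mbp, a myelin protein, stood at 314 CPM in D3811 and 490 CPM in D3833, against a median of 1056 CPM over all mice, while Slc17a7 stood at 2074 and 2372 CPM in them. The part of Mbp in the pattern was not tested.

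**Figure D3:**
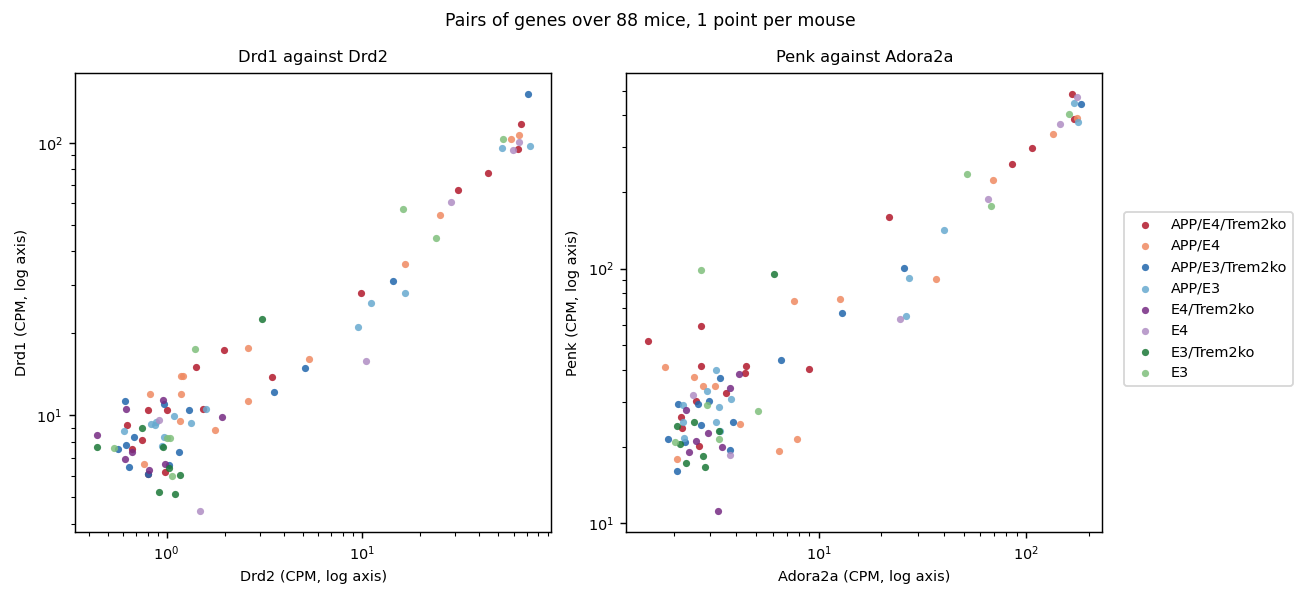
Drd1 against Drd2 and Penk against Adora2a in CPM (log axes), with 1 point per mouse coloured by genotype. The mice with the most Drd2 also have high Drd1. At 10.5 CPM of Drd2, however, E3471 (E4) has 15.9 CPM of Drd1, less than D3811 (E3, 17.6 CPM at 1.40 CPM of Drd2). A few mice carry high Penk at low Adora2a.

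The 12 genes outside the 9 whose levels ranked most like theirs were Rxrg, Pde1b, Lrrc10b, Serpina9, Gnal, Tacr1, Adcy5, Gng7, Rarb, Spint1, Actn2 and Clmp. Their mean Spearman rho with the 9 genes over 88 mice ran from 0.71 to 0.76, against a median of 0.02 over the 14077 genes compared. Adcy5, the main adenylyl cyclase of the striatum, Gnal and Gng7, subunits of the G protein that couples D1 and A2a receptors to it, and Pde1b, a calcium-dependent phosphodiesterase, are parts of the same signalling chain. Adcy5 ran from 84.9 to 791 CPM, Gnal from 128 to 682 CPM and Pde1b from 115 to 649 CPM. Rxrg and Rarb encode retinoid receptors, and Tacr1 the receptor for substance P. The 5 most opposite genes were Etv6, Zbtb16, Glp2r, Satb1 and Nfix, with a mean rho of -0.71 to -0.70. Satb1, a chromatin organiser, ran from 33.0 to 263 CPM and Nfix, a transcription factor, from 54.8 to 326 CPM.

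Genes of related lists followed the 9 to different degrees. Of 24 other spiny neuron signalling genes, 15 (62.5%) had a mean rho above 0.5 with the 9 genes, and of 16 striatal transcription factors 9 (56.2%), beside 4.21% of all genes. Of these signalling genes, Hpca, a calcium sensor that many neurons use, did not follow (mean rho 0.07), and Rgs4 leaned the other way (-0.36). Of the other direct pathway genes compared, 3 of 6 were above 0.5 (-0.03 to 0.71), and of the other indirect pathway genes 2 of 4 (0.08 to 0.71). Chrm4 (0.03) and Eya1 (-0.03) of the direct list and Grik3 (0.08) of the indirect list did not follow. All 5 measured genes of striatal cholinergic interneurons were above 0.5 (0.53 to 0.71). Chat, which makes acetylcholine, ran from 0.0457 to 36.4 CPM and Slc5a7, the choline transporter, from 0.256 to 60.1 CPM, both highest in D3938. Of 15 genes of cortical excitatory neurons, 0 were above 0.5 and 4 (26.7%), among them Fezf2, Lamp5 and Emx1, named after their values were seen, below -0.5, beside 3.3% of all genes. In D3938 Slc17a7 stood at 906 CPM, the lowest of the series, while in D3562, which had the most Drd2, it stood at 2155 CPM. Myelin genes (-0.29 to 0.02) and choroid plexus genes (-0.33 to 0.32) followed neither way. Genes of other regions also moved with the 9: 2 of 5 olfactory bulb genes (40.0%) and 2 of 5 septal genes (40.0%) were above 0.5, led by Cdhr1 (0.64) and Dner (0.58). Of 7 hippocampal genes 2 (28.6%) were above 0.5, led by Wfs1 (0.56), and of 9 thalamic genes 1 (11.1%). None of 6 microglia genes was above 0.5, but all were positive (0.29 to 0.43). The rho of the list's mean level with the mean rank of the 9 genes was -0.68 for the cortical excitatory, 0.77 for the olfactory bulb and 0.59 for the septal genes. It was 0.50 for the hippocampal, -0.07 for the thalamic and 0.58 for the microglia genes, and the part of these further lists was not tested. The summed level of the 5 olfactory bulb genes ran from 64.4 to 678 CPM, that of the 5 septal genes from 147 to 458 CPM and that of the 5 cholinergic genes from 1.0 to 161 CPM, and their part in the results was not tested.

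Of the comparisons between 2 genotypes, which share groups with each other, that of Trem2 deletion in plaque-free APOE4 mice gave the largest median difference of the 9 genes. All 9 were lower in the 8 E4/Trem2ko mice than in the 6 E4 mice on average, yet none passed the test, limma on log2(CPM + 0.5) with a Benjamini-Hochberg adjusted p under 0.05 over 14086 genes. Drd2 averaged 0.878 ± 0.459 CPM in E4/Trem2ko mice (SD, n = 8) and 27.5 ± 28.4 CPM in E4 mice (SD, n = 6). Its log2 fold change was -3.19 (SE 1.03, 95% interval -5.22 to -1.16, limma p = 0.00279, adjusted p = 0.569). The spread lay in the E4 group: 4 of its 6 mice had 10.5 to 64.1 CPM and the others 0.915 and 1.49 CPM. Adora2a had a log2 fold change of -2.98 (SE 1.07), Penk of -2.10 (SE 0.75) and Gpr6 of -1.79 (SE 0.69). Among the direct pathway genes it was -1.63 for Drd1 (SE 0.67) and -1.57 for Tac1 (SE 0.69), and among the shared genes -1.78 for Ppp1r1b, -1.77 for Rgs9 and -1.65 for Pde10a. The count called was 0 of 9, where 0.0994% of all genes were called, and 9 of 9 had an unadjusted limma p under 0.05, where 6.47% of all genes did. Because the 9 genes move together over the same mice, they are not 9 independent results. The same holds for such counts in the comparisons that follow. The median log2 fold change was -1.78 for the 9 genes and -0.01 for all genes tested.

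No gene of the lists around the 9 genes passed in this comparison. Among the 24 other spiny neuron signalling genes 0 passed in either direction and 2 were positive (median -0.60), and among the 5 cholinergic genes none was positive (median -1.82). Cortical excitatory genes had 13 of 15 positive (median 0.22), and 0 of them passed. Chat had a log2 fold change of -1.82 (SE 0.73) and Slc17a7 of 0.04 (SE 0.13). The summed level of the 5 cholinergic genes ran from 1.22 to 2.72 CPM in E4/Trem2ko and from 1.23 to 72.0 CPM in E4 mice, that of the olfactory bulb genes from 64.4 to 217 CPM in E4/Trem2ko and from 108 to 297 CPM in E4 mice, and that of the septal genes from 157 to 206 CPM in E4/Trem2ko and from 151 to 413 CPM in E4 mice. That of the cortical excitatory genes ran from 3680 to 4637 CPM in E4/Trem2ko and from 3123 to 4255 CPM in E4 mice, and that of 6 microglia genes from 288 to 351 CPM in E4/Trem2ko and from 326 to 440 CPM in E4 mice. The part of these cells in the result was not tested. Keratin reads were found in 7 of the 8 E4/Trem2ko and 4 of the 6 E4 libraries. Without them 1 E4/Trem2ko and 2 E4 mice were left, and the 9 values ran from -3.54 to -1.19, with the spread taken from the other genotypes, so that they are no check of the result. Leaving out each mouse in turn gave -3.82 to -2.66 for Drd2, with 0 of 9 called each time. When the mean level of the 24 other spiny neuron genes entered the fit as a covariate, the log2 fold changes of the 9 genes ran from -0.54 (Drd2) to 0.17 (Tac1). With the mean level of the 15 cortical excitatory genes in its place they ran from -2.09 to -0.76. DESeq2 on the whole reads recovered from the CPM values called 3 of the 9, Drd2 (-4.94, adjusted p = 0.00392), Adora2a (-4.47, adjusted p = 0.0140) and Penk (-2.96, adjusted p = 0.0341), where it called 0.291% of all genes, while edgeR's quasi-likelihood test called 0 of the 9, where it called 0.142% of all genes.

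In plaque-free APOE3 mice, E3/Trem2ko cortex also had lower averages of all 9 genes than E3 cortex. Penk averaged 30.0 ± 26.7 CPM in E3/Trem2ko mice and 127 ± 138 CPM in E3 mice (SD, n = 8 each). Its log2 fold change was -1.49 (SE 0.69, limma p = 0.0334, adjusted p = 0.196). Drd1 averaged 8.71 ± 5.73 CPM in E3/Trem2ko mice and 31.6 ± 34.7 CPM in E3 mice, a log2 fold change of -1.23 (SE 0.62). The remaining values lay between -1.80 for Adora2a and -0.89 for Pde10a. The E3 mice D3502, D3722 and D3810 carried the high Drd2 values, at 53.0, 24 and 16.3 CPM, and the other 5 ran from 0.541 to 1.40 CPM. For Penk D3811 (99.0 CPM) also lay above all E3/Trem2ko mice. The count called was 0 of 9, where 2.92% of all genes were called, and 2 of 9 had an unadjusted limma p under 0.05, where 21.3% of all genes did. DESeq2 called Drd2 (-3.29, adjusted p = 0.0339) and Adora2a (-3.53, adjusted p = 0.0185), where it called 4.97% of all genes, and edgeR called 0 of the 9, where it called 2.73%. With the covariate of the other spiny neuron genes the 9 values ran from -0.06 to 0.51. The 5 cholinergic genes summed to 1.15 to 2.27 CPM in E3/Trem2ko and 1.57 to 52.9 CPM in E3 mice, and their part was not tested. Of the related lists, 3 neuronal genes that passed here are named after their values were seen: Kcnip2, a potassium channel subunit, fell by 0.59 and Ppp1r1a, a phosphatase inhibitor related to DARPP-32, by 0.63 on the log2 scale (limma adjusted p = 0.0151 and 0.0222), and Oprd1, the delta opioid receptor, rose by 0.69 (adjusted p = 0.0422).

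In APP mice the 9 genes did not differ by Trem2 beyond their spread. APP/E4/Trem2ko against APP/E4 mice gave log2 fold changes from -0.19 (Gpr6) to 0.42 (Tac1), with 3 of 9 positive. Drd2 averaged 14.2 ± 23.2 CPM in APP/E4/Trem2ko mice (SD, n = 16) and 13.1 ± 21.6 CPM in APP/E4 mice (SD, n = 14), with a 95% interval of the log2 difference from -1.51 to 1.2. APP/E3/Trem2ko against APP/E3 mice gave -0.72 (Adora2a) to -0.24 (Gpr6), all 9 negative. Drd2 there averaged 7.34 ± 18.7 CPM in APP/E3/Trem2ko and 12.2 ± 22.2 CPM in APP/E3 mice (SD, n = 14 each), with an interval from -2.10 to 0.74. limma, edgeR and DESeq2 called 0 of 9 in both comparisons and 0 of 9 had an unadjusted limma p under 0.05, where limma called 13.8% of all genes in APOE4 and 0.319% in APOE3. An unadjusted limma p under 0.05 was met by 28.3% of all genes in APOE4 and 5.56% in APOE3. edgeR called 11.1% and 0.433% there, and DESeq2 12.5% and 0.561%. Both intervals include 0 and reach beyond a level 2-fold lower. Whether the Trem2 difference in APOE4 itself differed with APP was also tested: the interaction ran from 1.54 to 3.05 on the log2 scale, 7 of 9 had an unadjusted limma p under 0.05, where 15.4% of all genes did, and 0 of 9 passed by limma (lowest adjusted p = 0.242), edgeR or DESeq2, where 0% of all genes were called.

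APP/E4/Trem2ko mice had higher averages of all 9 genes than E4/Trem2ko mice, which also enter the plaque-free comparison. Penk averaged 125 ± 149 CPM in APP/E4/Trem2ko mice (SD, n = 16) and 24.3 ± 8.83 CPM in E4/Trem2ko mice (SD, n = 8). Its log2 fold change was 1.57 (SE 0.60, limma p = 0.0102, adjusted p = 0.159). Drd2 had 1.71 (SE 0.83) and Tac1 1.25 (SE 0.55), and the remaining 6 genes lay between 0.81 (Gpr6) and 1.48 (Adora2a). Of the 16 APP/E4/Trem2ko mice, 6 exceeded 3.08 CPM of Drd2, a limit set by the highest plaque-free Trem2ko mouse, and the E4/Trem2ko mice stopped at 1.92 CPM. The count called was 0 of 9, where 0.0781% of all genes were called, and 5 of 9 had an unadjusted limma p under 0.05, where 18.5% of all genes did. DESeq2 called Tac1 (2.11), Drd2 (4.03), Adora2a (3.58) and Penk (2.36), with adjusted p from 0.00670 to 0.0402, where it called 1.10% of all genes. edgeR called 0 of the 9, where it called 0.163%. With the covariate of the other spiny neuron genes the 9 values ran from -0.08 to 0.59, and with that of the cortical excitatory genes from -0.04 to 0.46. The 5 cholinergic genes summed to 1.21 to 60.9 CPM in APP/E4/Trem2ko and 1.22 to 2.72 CPM in E4/Trem2ko mice, and their part was not tested.

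In the other APP comparisons the 9 genes leaned in different directions. Against E4 mice, APP/E4 mice gave -1.35 to -0.44, against E3 mice APP/E3 mice gave -0.42 to -0.15, and against E3/Trem2ko mice APP/E3/Trem2ko mice gave 0.27 to 0.80. limma, edgeR and DESeq2 called 0 of 9 in each, with 0 of 9 at an unadjusted limma p under 0.05, where limma called 0.0142%, 0.0213% and 0.149% of all genes. In the same order 9.29%, 5.99% and 16.7% of all genes had an unadjusted limma p under 0.05, and edgeR called 0.0213%, 0.0284% and 0.341% of all genes, and DESeq2 0.0710%, 0.0639% and 1.60%.

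APOE isoform was compared in 4 backgrounds, and 0 of 9 genes passed in any by limma, edgeR or DESeq2, with 0 of 9 at an unadjusted limma p under 0.05. The median log2 fold change of the 9 genes was 0.13 for APP/E4 against APP/E3 mice and 0.56 for APP/E4/Trem2ko against APP/E3/Trem2ko mice. Without APP it was 0.49 for E4 against E3 mice and -0.15 for E4/Trem2ko against E3/Trem2ko mice. Of all genes, 42.5%, 19.3%, 22.0% and 22.9% had an unadjusted limma p under 0.05 in these comparisons. limma called 33.6%, 4.46%, 7.72% and 6.21% of all genes, edgeR 33.6%, 4.79%, 6.04% and 5.70%, and DESeq2 34.7%, 5.79%, 7.18% and 6.89%. Once the level of the other spiny neuron genes was in the fit, Ppp1r1b alone of the 9 was called for isoform. Its log2 fold change was then -0.33 for APP/E4 against APP/E3 mice (limma adjusted p = 0.0185), -0.42 for APP/E4/Trem2ko against APP/E3/Trem2ko mice (adjusted p = 0.0193) and -0.46 for E4/Trem2ko against E3/Trem2ko mice (adjusted p = 0.0455). In E4 against E3 mice the same fit gave -0.08 (SE 0.17, adjusted p = 0.820). Under that fit 36.1%, 4.10% and 7.84% of all genes were called in the 3 comparisons that called Ppp1r1b. Without the covariate Ppp1r1b averaged 227 ± 248 CPM in APP/E4 and 282 ± 336 CPM in APP/E3 mice (SD, n = 14 each), with a log2 fold change of -0.30 (SE 0.42, adjusted p = 0.624). The fit with the covariate also called Tac1 higher in APP/E4/Trem2ko than in APP/E4 mice, at 0.42 (adjusted p = 0.0286), where it called 15.5% of all genes.

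**Figure D4:**
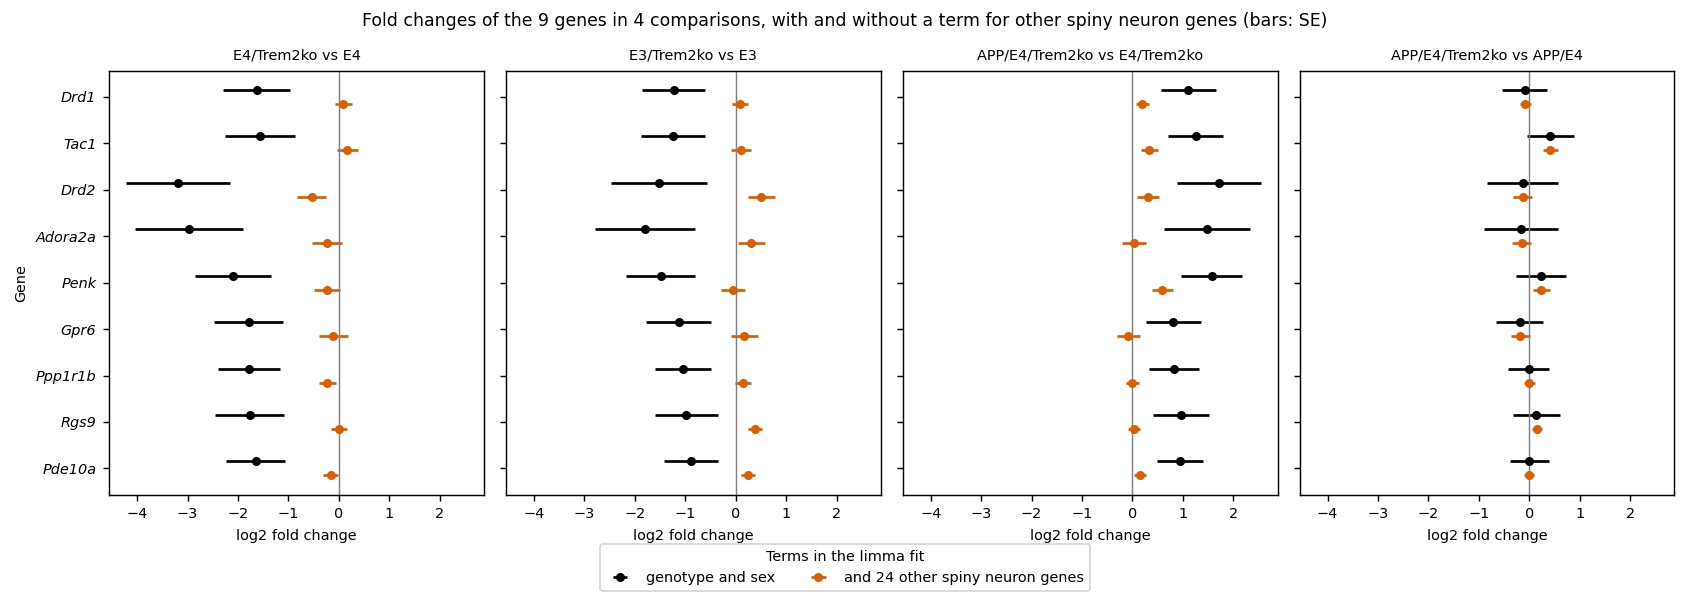
Log2 fold change (points) and SE (bars) of the 9 genes in 4 comparisons, from limma with genotype and sex (black) and with the mean level of 24 other spiny neuron genes added (orange). For E4/Trem2ko against E4 mice the black values lie between -3.19 and -1.57 and the orange ones between -0.54 and 0.17.

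Females and males did not separate. Drd2 had a median of 1.18 CPM in 45 females (0.439 to 71.1 CPM) and 1.17 CPM in 43 males (0.541 to 72.4 CPM). The log2 difference, female over male, lay between 0.05 (Pde10a) and 0.36 (Penk, 95% interval -0.22 to 0.94), and limma, edgeR and DESeq2 called 0 of 9, with 0 of 9 at an unadjusted limma p under 0.05, where 5.51% of all genes had one and limma called 0.135%, edgeR 0.149% and DESeq2 0.170%. The other 5 interactions of genotype gave 0 of 9 called by the same 3 tools, with 0 of 9 at an unadjusted limma p under 0.05, where 6.08% to 15.5% of all genes had one. limma called 0.369% of all genes for the APOE interaction with Trem2 in APP mice, 0.0142% for the same without APP and 0% for the other 3, edgeR called 0.525%, 0.0284% and 0%, and DESeq2 0.00710% to 0.802% over the 5.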

How the data were processed

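RNA of anterior (frontal) cortex of 88 mice was sequenced, 1 library per mouse. The authors aligned reads to mm10 with Subread and featureCounts and deposited CPM per gene (edgeR is also named in the processing notes). The table held 14497 entries, and the 46 exact repeats were dropped. Every value was a whole multiple (within 0.01) of what 1 read is worth in its library, in 100.0% of values of each library, which gave reads and depth. Groups came from the mouse labels. limma (3.58.1) was run on log2(CPM + 0.5) with genotype and sex over all 88 mice, for 14086 genes averaging 1 CPM or more, and was tested on simulated data. edgeR (4.0.16), DESeq2 (1.42.0), other pseudocounts, filters, scalings, covariates and left-out libraries were alternatives. A sequencing batch named in the study's methods was not in the labels and was not modelled. The members and lists were chosen with earlier results of these data known. Named genes are the 9, the 12 most alike and 5 most opposite by Spearman rho, up to 5 of the highest mean CPM per list, and those said to be named afterwards. Each mouse is a separate animal. Values of some genes of the related lists are not reported here.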

Additional observations from a re-analysis of the deposited data

Results flagged for a closer look

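In the 4 genotypes of 6 to 8 mice, a mouse was looked at again where its gap to the nearest other mouse took up more of the group's range than Dixon's 95% limit (0.526 for 8 mice, 0.625 for 6). Chance alone gives this in about 1 of 20 groups of normally distributed values. The gaps were taken in CPM, which is skewed to high values here, so that rate is no benchmark for them. The limit was met in 10 of 36, which are not independent because the genes move together. In E3/Trem2ko cortex the mouse D3833 stood apart for Drd1 (22.5 CPM, next 8.97), Tac1 (14 CPM, next 8.30), Drd2 (3.08 CPM, next 1.17), Adora2a (6.06 CPM, next 3.30), Penk (95.6 CPM, next 25) and Ppp1r1b (153 CPM, next 114). In E3 cortex D3502 stood apart for Drd2 (53.0 CPM, next 24), Adora2a (160 CPM, next 67.6) and Rgs9 (212 CPM, next 95.6). In E4/Trem2ko cortex E3261 had 1.92 CPM of Drd2, where the next mouse had 0.984 CPM. No E4 mouse stood apart by this limit.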

How the results depend on the processing

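No member was called in any of the 88 fits that left out 1 mouse (lowest and highest count 0 in all 19 comparisons), nor under any other setting run except DESeq2 and the covariate of other spiny neuron genes. DESeq2 called 3 members for E4/Trem2ko against E4, 2 for E3/Trem2ko against E3 and 4 for APP/E4/Trem2ko against E4/Trem2ko. The covariate called 1 member each for APP/E4/Trem2ko against APP/E4, APP/E4 against APP/E3, APP/E4/Trem2ko against APP/E3/Trem2ko and E4/Trem2ko against E3/Trem2ko. It turned the sign of the log2 fold change for E3/Trem2ko against E3 in Drd1 (0.09), Tac1 (0.10), Drd2 (0.51), Adora2a (0.31), Gpr6 (0.17), Ppp1r1b (0.15), Rgs9 (0.38) and Pde10a (0.25), for E4/Trem2ko against E4 in Drd1 (0.09) and Tac1 (0.17), and for APP/E4/Trem2ko against E4/Trem2ko in Gpr6 (-0.08) and Ppp1r1b (-0.00286). The covariate of cortical excitatory genes also turned Gpr6 there (-0.04). Ppp1r1b in APP/E4/Trem2ko against APP/E3/Trem2ko was near 0 and turned with a pseudocount of 1 (3.21e-04), TMM scaling (0.01), edgeR (0.38) and DESeq2 (0.38), and ran from -0.18 to 0.20 with 1 mouse left out. Of 403 values for single genes, 373 kept direction and side of the threshold, 13 passed it newly and 17 turned, and the causes were not tested. By Pearson's r, 5 of the 12 most alike genes and 1 of the 5 most opposite, Nfix, remained. Without keratin libraries the pairwise r was 0.84 to 0.98. No paired analysis was possible because the labels give each mouse a name of its own and no number shared between genotypes. The study's sequencing batch is not in the labels, so batch and genotype cannot be told apart here. At 17 to 24 reads the lowest Gpr6 and Drd2 values carry counting intervals of more than 2-fold in width.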

Other observations

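Some genes of neighbouring signalling lists, chosen for mention after their values were seen, also followed the 9 genes over the 88 mice, where 4.21% of all genes had a mean rho above 0.5. Of 14 other opioid and tachykinin genes (median rho 0.11), 5 were above 0.5, among them Oprk1, the kappa opioid receptor that binds dynorphin (0.69, at 0.634 to 19.7 CPM), while Pcsk1, a protease that cleaves neuropeptide precursors, ran the other way (-0.59). Of 19 other dopamine and cAMP genes (median rho 0.37), 6 were above 0.5. Among 12 genes of GABAergic interneurons, Gad2, which makes GABA and is also used by spiny neurons, was the closest (0.64, at 128 to 806 CPM) and Pvalb, a calcium-binding protein of fast-spiking cells, the most opposite (-0.61). In the E3 mouse D3811, where Penk exceeded Adora2a most, Trh, the precursor of thyrotropin-releasing hormone, stood at 61.3 CPM. High Trh and a high ratio of Penk to Adora2a did not always go together. Among the next highest ratios, Trh stood at 1.84 CPM in E4132, 10.5 CPM in E3200, 2.69 CPM in E4127 and 26.1 CPM in D3833. At lower ratios it stood at 50.9 CPM in D3810 (E3, 4.54-fold) and 41.4 CPM in E3820 (APP/E4/Trem2ko, 7.29-fold).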
